A study of Mus musculus with 6 samples.

Results

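Scar-associated macrophages are a macrophage state that was described in fibrotic liver. A set of 10 genes known to mark it was followed here in whole livers of mice fed DDC (3,5-diethoxycarbonyl-1,4-dihydrocollidine): Trem2, Gpnmb, Cd9, Fabp5, Lgals3, Cd68, Itgax, Ms4a7, Msr1 and Lyz2. They were taken by gene symbol. All 10 were found among the 24532 genes of the table, and all 10 were among the 14415 genes with enough counts to be tested. The 3 treated mice were wild-type C57BL/6 animals on food with 0.1% DDC for 4 weeks, which injures bile ducts and scars the liver, and were injected in the last 2 weeks with recombinant human cytoglobin (rhCYGB) at 2 mg/kg, 2 times a week. The 3 vehicle mice had the same strain and diet and received normal saline. Livers were collected 2 days after the final injection. Both groups carried the DDC injury and no liver without it was analysed here, so every difference below is between injured livers. Neither age nor sex is given in the sources used here.

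Scar-associated macrophages largely arise from blood monocytes that enter damaged tissue and gather along the fibrous septa. They take up lipid and dead cell material through surface receptors, digest it in enlarged lysosomes, and release factors that act on the collagen-producing stellate cells. TREM2, a lipid-sensing receptor that signals through the adaptor TYROBP, is often used to name the state. In DDC-fed liver, macrophages also collect around ducts plugged with porphyrin. None of the 10 genes belongs to these cells alone. CD9 and galectin 3, for example, are also made by epithelial and endothelial cells, and CD68 and lysozyme are shared by most macrophages.

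The genes can be read against their promoters in 4 examples. Itgax and Gpnmb are shown because their fold changes lay furthest below 0, and Trem2 and Lgals3 because the ratio of their TPM was the steadiest of any pair. Each sequence is a RefSeq window on GRCm38.p6 from 250 bases before to 50 bases after the gene start, written 5′ to 3′ on the gene's strand. All 4 genes lie on the plus strand, at chr7:128129300-128129599 for Itgax, chr6:49036268-49036567 for Gpnmb, chr17:48346151-48346450 for Trem2 and chr14:47373610-47373909 for Lgals3. Capitals mark matches to motifs of factors that act in macrophages, which are GAGGAA for PU.1, TGANTCA for AP-1, CACGTG for the E-box at the core of the lysosomal CLEAR element and CATGTG for the core of the M-box of MITF and TFE factors, each searched on both strands.
Itgax: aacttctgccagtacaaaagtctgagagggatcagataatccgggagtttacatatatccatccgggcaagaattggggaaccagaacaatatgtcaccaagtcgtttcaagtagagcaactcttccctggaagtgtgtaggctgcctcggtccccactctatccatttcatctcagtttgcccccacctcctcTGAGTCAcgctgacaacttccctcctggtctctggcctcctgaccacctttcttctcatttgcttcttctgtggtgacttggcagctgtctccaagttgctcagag
Gpnmb: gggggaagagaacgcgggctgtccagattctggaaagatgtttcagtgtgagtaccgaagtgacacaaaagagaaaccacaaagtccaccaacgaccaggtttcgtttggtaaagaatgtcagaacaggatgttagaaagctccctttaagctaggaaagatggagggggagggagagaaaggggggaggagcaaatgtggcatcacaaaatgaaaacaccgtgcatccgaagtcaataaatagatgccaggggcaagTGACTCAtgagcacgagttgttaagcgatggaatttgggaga
Trem2: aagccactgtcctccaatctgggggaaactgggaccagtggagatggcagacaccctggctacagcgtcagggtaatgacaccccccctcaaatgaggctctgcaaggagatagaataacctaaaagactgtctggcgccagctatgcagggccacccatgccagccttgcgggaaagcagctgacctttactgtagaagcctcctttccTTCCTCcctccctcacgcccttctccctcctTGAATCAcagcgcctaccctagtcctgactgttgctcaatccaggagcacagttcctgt
Lgals3: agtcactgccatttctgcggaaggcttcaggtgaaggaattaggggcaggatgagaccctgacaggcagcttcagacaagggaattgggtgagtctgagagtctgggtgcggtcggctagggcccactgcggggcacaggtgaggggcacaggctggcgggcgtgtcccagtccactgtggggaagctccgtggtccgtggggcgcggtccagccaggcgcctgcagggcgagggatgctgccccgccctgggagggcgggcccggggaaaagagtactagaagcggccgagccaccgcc

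Itgax held an AP-1 match 56 bases before its start, and Gpnmb held an AP-1 match at position 8. Trem2 held a PU.1 match on the opposite strand 40 bases before its start and an AP-1 match 9 bases before it. Lgals3 held none of the 4 motifs, although its TPM ratio to Trem2 was the steadiest. RefSeq windows matched 8 of the 10 genes, with 9 windows in all because Ms4a7 has a pair of starts. Of these 9 windows, 5 held the AP-1 motif, against 7.81% of all 32851 windows of 300 bases. The PU.1 motif was in 3 of 9, against 28.3% of all windows, and the M-box in 2 of 9, against 14.2%. The CACGTG motif was in 0 of 9, against 7.15%. A match is only a run of letters in this window and does not show that a factor binds there.

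The main result is that 9 of the 10 genes had lower fitted levels with rhCYGB, and that 0 of the 10 passed the test. A log2 fold change below 0 was found for 53.2% of all genes tested, and 0% of all genes passed an adjusted p of 0.05 (edgeR quasi-likelihood test, Benjamini-Hochberg over 14415 genes). Every fold change is given as log2 of rhCYGB divided by vehicle. The 10 genes had a median of -0.46, beside a median of -0.06 over all genes tested, and ran from -1.14 for Itgax to 0.17 for Trem2. Their adjusted p-values lay between 0.523 and 0.926. Other fits gave some calls. Limma-voom with sample quality weights called 3 of the 10 lower (Cd9, Itgax and Msr1), against 13.9% of all genes called lower, and edgeR without rhCYGB replicate 1 called 1 lower (Msr1), against 10.5%. Without rhCYGB replicate 1, the number of the 10 genes with lower levels was 7, and without vehicle replicate 3 it was also 7. In whole liver RNA, fewer cells of a type and less RNA per cell cannot be told apart.

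**Figure D1:**
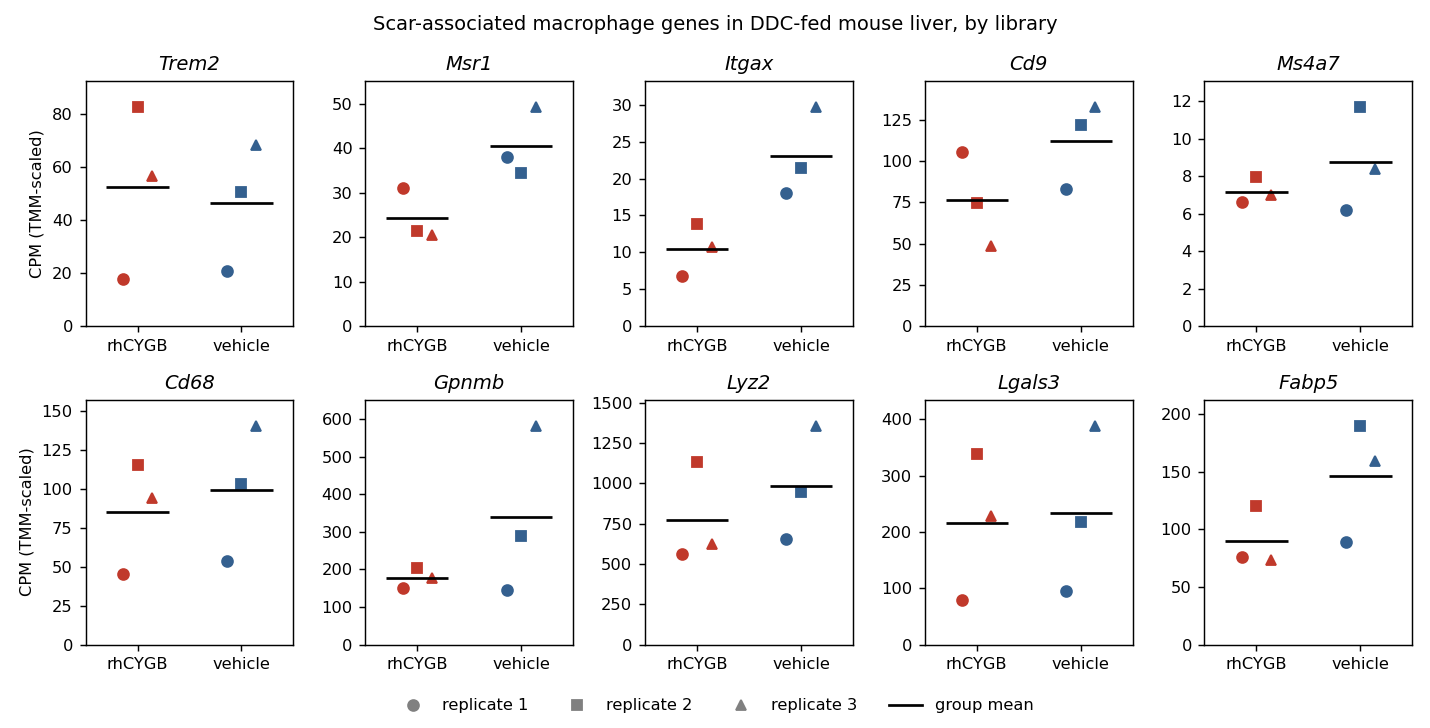
CPM scaled by TMM (y axis, linear from 0, a separate range for each gene) in the 3 rhCYGB and 3 vehicle livers. Each symbol is 1 liver and each line a group mean, and the groups are apart without overlap for Itgax and Msr1.

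Libraries held between 58422095 and 72431373 estimated counts. The libraries did not fall cleanly into their groups. On the first principal component, with 67.6% of the variance, rhCYGB replicate 1 was at -52.7 within the vehicle range of -81.3 to -24.5, while rhCYGB replicates 2 and 3 were at 61.6 and 129.8. Long genes also had relatively low values in those same livers. The slope of log2 expression on log2 gene length was 0.24, -0.35 and -0.33 in rhCYGB replicates 1 to 3 and 0.40, -0.02 and 0.06 in vehicle replicates 1 to 3. The part of both differences in the results below was tested only by refitting without each library and with the length trend removed.

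Among the surface receptors, Itgax and Msr1 stood apart from the rest. Itgax makes CD11c, an integrin chain of dendritic cells and activated macrophages (gene 16411, mm10 chromosome 7, 128129568 to 128150657). It was measured at 6.82, 13.9 and 10.7 CPM (the count relative to the TMM-scaled library total) in rhCYGB replicates 1 to 3, against 18.03, 21.5 and 29.7 CPM in vehicle replicates 1 to 3. Every rhCYGB liver was below every vehicle liver. Its mean was 10.5 ± 3.53 CPM with rhCYGB and 23.1 ± 5.99 CPM with vehicle (SD, n = 3 each), a log2 fold change of -1.14 (SE 0.35). The edgeR unadjusted p was 0.0124 and the adjusted p 0.523, so the difference did not pass.

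Msr1 makes a class A scavenger receptor that takes up modified lipoproteins and debris (gene 20288, chromosome 8, 39581700 to 39642678, where it spans the microRNA gene Mir669e). Its values were 31.0, 21.4 and 20.5 CPM in rhCYGB replicates 1 to 3, against 38.0, 34.5 and 49.2 CPM in vehicle replicates 1 to 3. Here too the highest rhCYGB liver lay below the lowest vehicle liver. The means were 24.3 ± 5.84 and 40.5 ± 7.67 CPM with rhCYGB and vehicle (SD, n = 3 each), and the log2 fold change was -0.74 with an SE of 0.28 (edgeR unadjusted p = 0.0310, adjusted p = 0.523). These 2 genes, of the 10, were the ones whose groups did not overlap on the CPM scale and the ones with an unadjusted p under 0.05. Among all genes tested, 7.38% had rhCYGB livers wholly below the vehicle livers in CPM, and 2.06% were lower at that unadjusted p.

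Both genes are long, at 4025 bases for Itgax and 3297 for Msr1, as is Gpnmb at 3798, while the other 7 run from 952 to 1397 bases. With each library's length trend removed, the log2 fold change was -0.85 for Itgax and -0.60 for Msr1. Fabp5 then lay furthest below 0, at -1.14, and Lyz2 was at -0.82. The edgeR unadjusted p was 0.0847 for Itgax, 0.0298 for Msr1, 0.00610 for Fabp5 and 0.0348 for Lyz2. Of the 10 genes, 3 were lower at an unadjusted p under 0.05, against 429 of all 14415 genes tested, and 0 passed after adjustment. The Itgax groups then overlapped, because rhCYGB replicate 2 lay above vehicle replicate 1, and the Msr1 groups did not. On that scale Fabp5, Ms4a7, Msr1 and Lyz2 had rhCYGB livers wholly below the vehicle livers, which is 4 of the 10 genes, against 8.14% of all genes tested.

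Trem2 was the exception in direction (gene 83433, chromosome 17, 48346401 to 48352276). It was at 17.6, 82.5 and 56.7 CPM in rhCYGB replicates 1 to 3, against 20.6, 50.4 and 68.4 CPM in vehicle replicates 1 to 3. Replicate 1 of each group was low and the other livers of both groups were well above it, so the groups overlapped almost fully. The means were 52.3 ± 32.6 CPM with rhCYGB and 46.5 ± 24.2 CPM with vehicle (SD, n = 3 each). The log2 fold change of 0.17 (SE 0.62, edgeR adjusted p = 0.890) turned to -0.37 with the length trend removed, and its SE spans changes in either direction.

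Cd9, a tetraspanin of the cell membrane (gene 12527, chromosome 6, 125460266 to 125494755), was measured at 106, 74.8 and 48.4 CPM in rhCYGB replicates 1 to 3, against 82.8, 122 and 133 CPM in vehicle replicates 1 to 3. The rhCYGB replicate 1 liver lay inside the vehicle range and the other rhCYGB livers below it. Its log2 fold change was -0.56 (SE 0.35, edgeR adjusted p = 0.538). Without rhCYGB replicate 3 it was -0.32, and without rhCYGB replicate 1 it was -0.87. Ms4a7, a membrane protein of the MS4A family found on macrophages (gene 109225, chromosome 19, 11321039 to 11336146), had low and even values. It was at 6.59, 7.96 and 6.99 CPM with rhCYGB, against 6.18, 11.7 and 8.38 CPM with vehicle, and all 3 rhCYGB livers fell within the vehicle range. Its log2 fold change was -0.28 (SE 0.31, edgeR adjusted p = 0.658). Without vehicle replicate 2 it was -0.02, and without vehicle replicate 1 it was -0.49.

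Of the lysosomal and degradative genes, Gpnmb showed the widest vehicle spread. It makes a lysosome-associated glycoprotein that is induced when lysosomes are loaded (gene 93695, chromosome 6, 49036518 to 49058182). The values were 149.6, 203 and 176 CPM in rhCYGB replicates 1 to 3, against 146, 289 and 582 CPM in vehicle replicates 1 to 3. The rhCYGB livers were close together, and vehicle replicate 3 stood above all others at 3.98-fold the lowest vehicle liver. The means were 176 ± 26.8 CPM with rhCYGB and 339 ± 222 CPM with vehicle (SD, n = 3 each), a log2 fold change of -0.94 (SE 0.50, edgeR adjusted p = 0.523). Without vehicle replicate 3 it was -0.31.

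Cd68, the lysosomal membrane sialomucin used to stain macrophages (gene 12514, chromosome 11, 69664213 to 69666170), reached 45.6, 116 and 94.0 CPM with rhCYGB, against 53.9, 103 and 141 CPM with vehicle. Replicate 1 was again the lowest liver of each group. Its log2 fold change of -0.22 (SE 0.46, edgeR adjusted p = 0.805) became 0.08 without rhCYGB replicate 1 and 0.11 without vehicle replicate 3. Lyz2, the lysozyme of macrophages and granulocytes (gene 17105, chromosome 10, 117277541 to 117282272), was the most abundant of the 10. It reached 562, 1134 and 620.3 CPM with rhCYGB, against 656, 943 and 1356 CPM with vehicle, with overlapping groups and a log2 fold change of -0.35 (SE 0.44, edgeR adjusted p = 0.688). That value ran from -0.74 without rhCYGB replicate 2 to -0.05 without vehicle replicate 3. Leaving out rhCYGB replicate 1, rhCYGB replicate 3 or vehicle replicate 1 gave -0.17, -0.22 or -0.58. With the length trend removed the Lyz2 value was -0.82. Lyz1, the near-identical neighbouring gene, was at 3.95, 7.29 and 3.05 CPM with rhCYGB, against 4.85, 6.77 and 10.4 CPM with vehicle. How reads were divided between both copies is uncertain, so the Lyz2 values are as well.

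The soluble proteins of the group are galectin 3 and a fatty acid carrier. Lgals3, which makes galectin 3, a secreted lectin that stellate cells and macrophages respond to (gene 16854, chromosome 14, 47373860 to 47386167), was measured at 78.2, 339 and 228 CPM with rhCYGB, against 95.6, 217 and 388 CPM with vehicle. Its groups overlapped throughout, and the log2 fold change was -0.12 (SE 0.65, edgeR adjusted p = 0.926). Without rhCYGB replicate 1 it was 0.27, and without vehicle replicate 3 it was 0.45. Fabp5, which carries fatty acids inside cells (gene 16592, chromosome 3, 10012585 to 10016610), was found at 76.2, 120.5 and 73.6 CPM with rhCYGB, against 88.9, 190.1 and 159.8 CPM with vehicle. The rhCYGB livers tended to lie lower, with rhCYGB replicate 2 inside the vehicle range. Its log2 fold change was -0.70 (SE 0.37, edgeR adjusted p = 0.523). Without vehicle replicate 2 it was -0.46, and with the length trend removed it was -1.14.

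**Figure D2:**
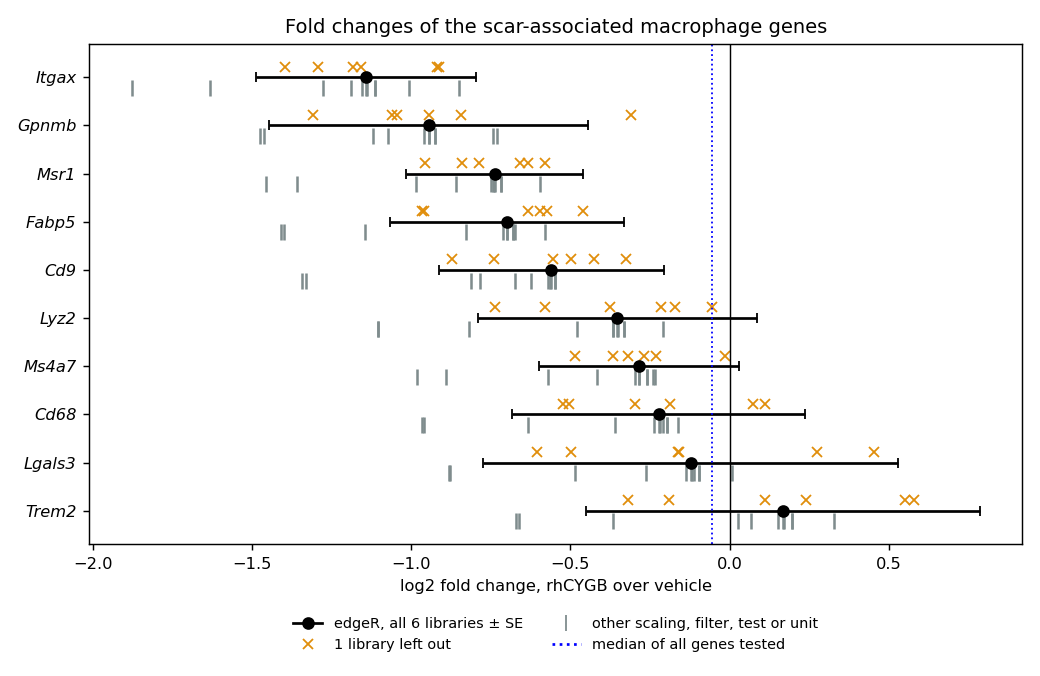
Log2 fold change of rhCYGB over vehicle for each gene (x axis), with black points and bars for edgeR on all 6 libraries ± SE, crosses for fits with 1 library left out and ticks for the other settings. The dotted line is the median of all genes tested at -0.06. Itgax, Msr1, Gpnmb, Cd9, Fabp5, Ms4a7 and Lyz2 stay below 0 in every fit drawn, while Trem2, Lgals3 and Cd68 have fits on both sides of 0.

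Levels of different genes can be compared only per length, so the deposited FPKM values were rescaled to TPM, which gives transcripts per length as a share of the library. On that scale Lyz2 was far above the others, at 946 ± 352 TPM with rhCYGB and 1964 ± 528 TPM with vehicle (SD, n = 3 each). Lgals3 at 177 ± 73.7 TPM with rhCYGB and 341 ± 190 TPM with vehicle and Fabp5 at 126 ± 51.5 TPM with rhCYGB and 317 ± 48.5 TPM with vehicle came next. Itgax was the lowest at 3.26 ± 0.713 TPM with rhCYGB and 12.3 ± 2.67 TPM with vehicle.

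The order of the 10 genes was the same in both groups except for the neighbours Cd68 and Gpnmb. In rhCYGB livers it ran from Lyz2 through Lgals3, Fabp5, Cd9 (98.6 ± 81.6 TPM), Cd68 (83.0 ± 15.7), Gpnmb (61.7 ± 21.6), Trem2 (54.1 ± 23.7), Msr1 (11.1 ± 8.30) and Ms4a7 (7.27 ± 2.96) to Itgax. In vehicle livers Cd9 was at 199.7 ± 21.1 TPM, followed by Gpnmb (183 ± 108), Cd68 (166 ± 55.1), Trem2 (86.0 ± 36.2), Msr1 (26.8 ± 7.72) and Ms4a7 (13.8 ± 1.65). Neighbours whose ranges did not overlap were Lyz2 and Lgals3, Trem2 and Msr1, and Ms4a7 and Itgax with rhCYGB. With vehicle they were Lyz2 and Lgals3, Fabp5 and Cd9, Trem2 and Msr1, and Msr1 and Ms4a7. All other neighbours in the order overlapped.

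On the TPM scale rhCYGB livers lay wholly below vehicle livers for 6 of the 10 genes, which were Gpnmb, Fabp5, Cd68, Itgax, Ms4a7 and Lyz2, against 12.7% of all genes tested. That scale shifts most genes the same way, with 12.8% of all genes tested higher with rhCYGB on log2(TPM + 1). The median of all genes tested was -0.51 on log2(TPM + 1), where the 10 genes had a median of -1.22. On log2(TPM + 0.1) the median was -0.75 for all genes and -1.22 for the 10 genes. How far the 10 lay below all genes on the TPM scale thus depended on the pseudocount.

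The 10 genes did not vary as 1 block across the livers. Within each group, 7 of them (Trem2, Lgals3, Cd68, Gpnmb, Itgax, Ms4a7 and Lyz2) had their lowest CPM in replicate 1. Among rhCYGB livers the other 3, Cd9, Msr1 and Fabp5, were lowest in replicate 3. Ratios of TPM within a liver do not depend on how libraries are scaled. Of the 45 pairs among the 10 genes, Lgals3 over Trem2 was the steadiest. It was 3.50, 3.24 and 3.16 in rhCYGB replicates 1 to 3, against 3.66, 3.39 and 4.47 in vehicle replicates 1 to 3, a range of 1.41-fold. Cd9 over Msr1 came next with a range of 1.68-fold.

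The least steady pair was Trem2 over Msr1. This ratio was 1.67, 11.6 and 8.18 in rhCYGB replicates 1 to 3, against 1.61, 4.50 and 4.19 in vehicle replicates 1 to 3. Replicate 1 was low in both groups, and rhCYGB replicates 2 and 3 were above every vehicle liver, so the range was 7.23-fold. Trem2 over Itgax was 9.45, 21.8 and 19.4 in rhCYGB replicates 1 to 3, against 4.18, 8.60 and 8.43 in vehicle replicates 1 to 3. All 3 rhCYGB livers were above all 3 vehicle livers in this ratio, which was picked after its values were seen and has no test. The split was not particular to Trem2, as Cd68, Lyz2 and Ms4a7 over Itgax were split the same way. Cd68 over Itgax was 21.8, 27.1 and 28.4 in rhCYGB replicates 1 to 3, against 9.71, 15.7 and 15.5 in vehicle replicates 1 to 3. The ratios of Lgals3, Gpnmb, Fabp5, Cd9 and Msr1 to Itgax overlapped between the groups. Trem2 and Itgax differ in length, at 1101 and 4025 bases.

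**Figure D3:**
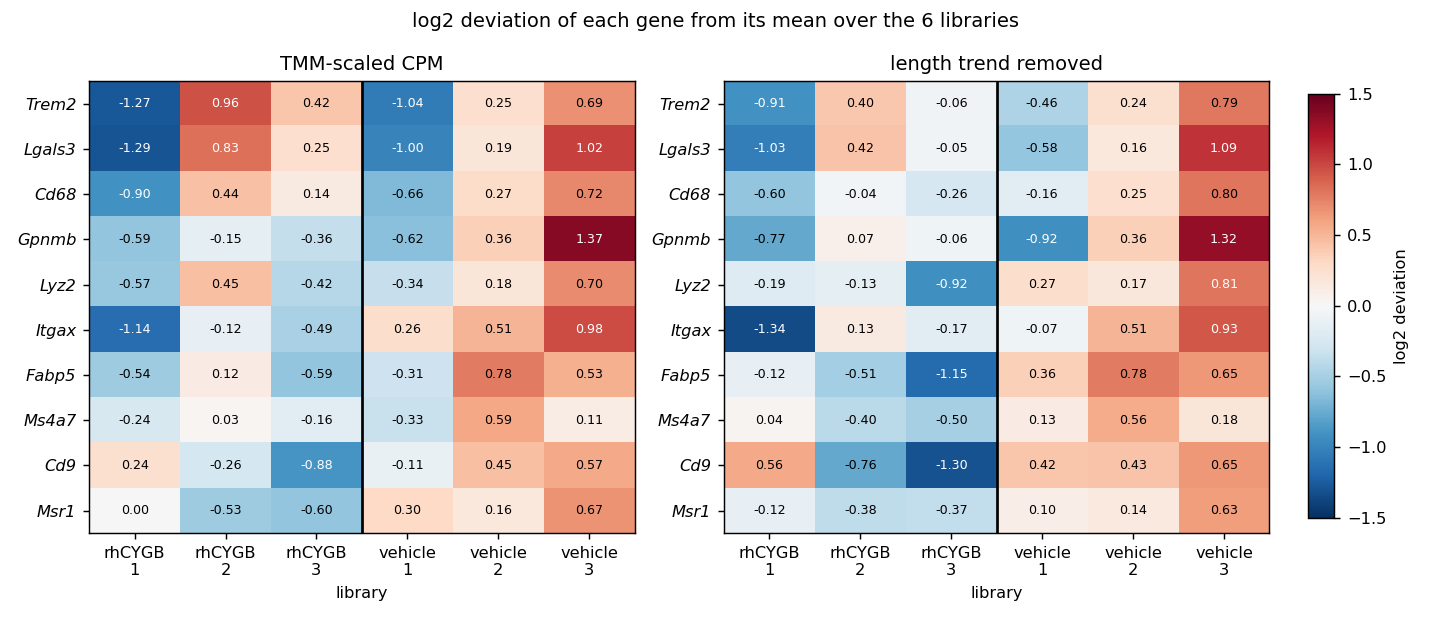
Log2 deviation of each gene from its own mean over the 6 livers (colour and printed value), for TMM-scaled CPM on the left and with each library's trend on gene length removed on the right. Columns are the 3 rhCYGB livers and then the 3 vehicle livers. In the left panel 7 of the 10 genes are lowest in replicate 1 within each group, and Fabp5, Cd9 and Msr1 are lowest in rhCYGB replicate 3.

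Whether the genes were low relative to macrophage RNA in general was examined with a core of 9 macrophage genes (Adgre1, Csf1r, Fcgr1, Mertk, Aif1, Cd14, Fcgr3, Fcer1g and Laptm5). Of these, 7 had lower and 2 higher fitted levels with rhCYGB. The median of their log2 fold changes was -0.28, and 0 had an unadjusted p under 0.05. The members of highest TPM were the Fc receptor chains Fcgr3, at 87.7 ± 33.6 CPM with rhCYGB and 81.2 ± 24.3 CPM with vehicle, and Fcer1g, at 65.5 ± 32.4 CPM with rhCYGB and 57.1 ± 21.7 CPM with vehicle. These are also the 2 core genes with log2 fold changes above 0, at 0.11 and 0.20, while the other 7 lay below 0. The summed core was 379, 618 and 521 CPM in rhCYGB replicates 1 to 3, against 418, 604 and 680.1 CPM in vehicle replicates 1 to 3. The groups overlapped in this CPM sum but not in TPM, where the core summed to 409, 412 and 301 in rhCYGB replicates 1 to 3, against 593, 614 and 762 in vehicle replicates 1 to 3. On log2(TPM + 1), where 12.8% of all genes tested were higher, 9 of the 9 core genes were lower.

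Per unit of that core, Itgax was still lower with rhCYGB. Its log2 TPM minus the mean log2 TPM of the core was -3.23, -2.89 and -2.91 in rhCYGB replicates 1 to 3, against -1.99, -2.25 and -2.004 in vehicle replicates 1 to 3. The groups did not overlap and differed by -0.93 (exact two-sided permutation test p = 0.1, the smallest p that 3 against 3 allows). Fabp5 differed by -0.43 with groups that did not overlap (exact permutation p = 0.1). The other 8 genes overlapped. The share of all genes tested whose groups would not overlap on this ratio was not computed, so these 2 genes cannot be set against it. Gpnmb differed by -0.50 and Msr1 by -0.49 (exact permutation p = 0.3 each), Cd9 by -0.36 (exact permutation p = 0.4) and Lyz2 by -0.12 (exact permutation p = 0.5). Trem2 was 0.31 higher per unit of core (exact permutation p = 0.6), and Lgals3, Cd68 and Ms4a7 differed by 0.10, 0.01 and -0.01. With Adgre1 alone as the denominator the Itgax difference was -0.65 and that of Fabp5 -0.15.

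**Figure D4:**
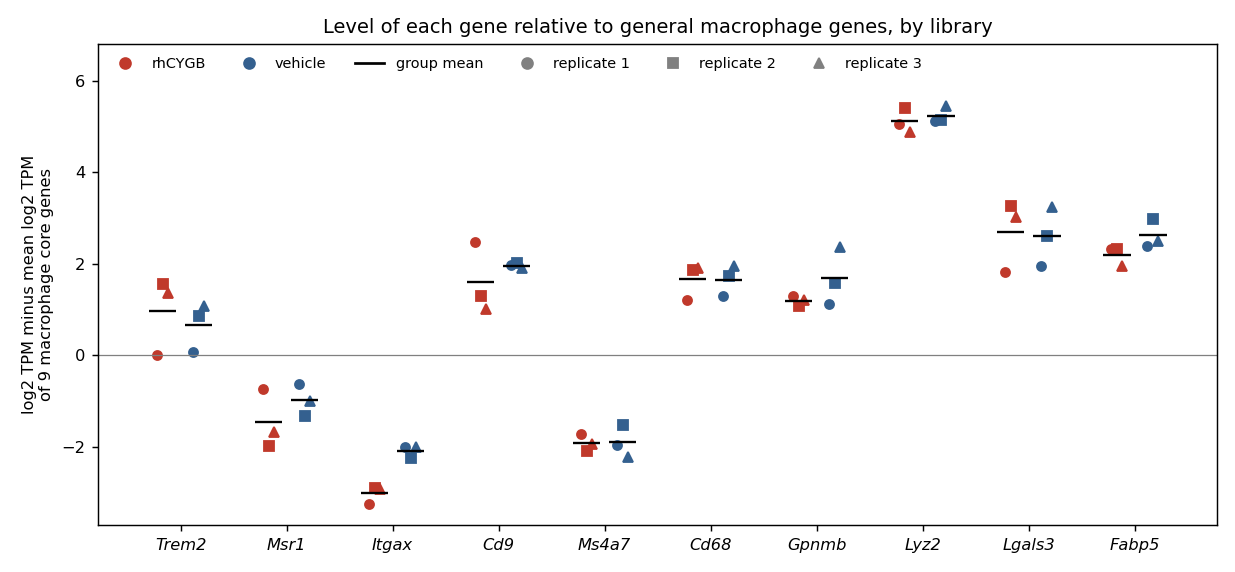
Log2 TPM of each gene minus the mean log2 TPM of 9 macrophage core genes (y axis, log2 units), with 1 symbol per liver, rhCYGB left of vehicle, and lines for group means. Itgax and Fabp5 have rhCYGB livers below all vehicle livers, at differences of -0.93 and -0.43.

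Of the TREM2 signalling genes, 10 of 13 had lower and 3 higher fitted levels. The median log2 fold change was -0.48, and -0.24 with the length trend removed. At an unadjusted edgeR p under 0.05, 2 genes were lower, against 2.06% of all genes tested. These were Syk, the kinase that the receptor's adaptor recruits, at 14.5 ± 3.27 CPM with rhCYGB and 22.7 ± 3.31 CPM with vehicle, and Inpp5d, the SHIP1 phosphatase that dampens this signalling, at 8.66 ± 0.671 CPM with rhCYGB and 14.9 ± 1.81 CPM with vehicle (SD, n = 3 each). Their log2 fold changes were -0.64 and -0.79. Tyrobp, the adaptor itself and named after its values were seen, was at 125 ± 64.3 CPM with rhCYGB and 107 ± 42.5 CPM with vehicle. It had its low values in replicate 1 of each group, at 56.8 CPM with rhCYGB and 63.5 CPM with vehicle, as Trem2 did.

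Signals that draw in and maintain macrophages were lower in 12 of 12 genes tested, with a median log2 fold change of -0.73. Of these, 6 were lower at an unadjusted edgeR p under 0.05, against 2.06% of all genes tested, and 0 passed after adjustment (adjusted p = 0.523 each). Ccr2, the receptor that brings monocytes into the liver, was at 4.96 ± 2.94 CPM with rhCYGB and 16.0 ± 3.41 CPM with vehicle. Ccl2, a ligand of CCR2, was at 6.25 ± 2.57 CPM with rhCYGB and 13.1 ± 2.75 CPM with vehicle. Ccl7, another CCR2 ligand in this list, was low throughout, at 0.490 ± 0.293 CPM with rhCYGB and 1.75 ± 0.387 CPM with vehicle.

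In the same list Cx3cr1, the fractalkine receptor of monocyte-derived cells, was at 3.63 ± 3.67 CPM with rhCYGB and 12.9 ± 3.06 CPM with vehicle. Csf2ra, the receptor chain for GM-CSF, and Tgfb1, the main profibrotic cytokine, had log2 fold changes of -0.88 (SE 0.25) and -0.83 (SE 0.31). Of the 12 genes tested, 6 had rhCYGB livers wholly below the vehicle livers in CPM, against 7.38% of all genes tested. They were the same 6 genes that were picked by their unadjusted p, so this count is not separate from that p. With the length trend removed, 10 of the 12 had log2 fold changes below 0.

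Mediators made by scar-associated macrophages had a median log2 fold change of -0.69, with 9 of 14 lower and 5 higher. On log2(TPM + 1), where 12.8% of all genes tested were higher, 14 of 14 were lower. Spp1, which makes osteopontin and is also made by bile duct cells, was at 542, 299 and 113 CPM in rhCYGB replicates 1 to 3, against 975, 892 and 897 CPM in vehicle replicates 1 to 3. The vehicle livers were close together and each rhCYGB liver was below them, and the log2 fold change was -1.53 with an SE of 0.55 (edgeR unadjusted p = 0.0264). Mmp12, the macrophage elastase, was at 69.3, 85.3 and 38.3 CPM in rhCYGB replicates 1 to 3, against 115, 164 and 291 CPM in vehicle replicates 1 to 3. Its groups did not overlap either, and its log2 fold change was -1.56 with an SE of 0.45 (edgeR unadjusted p = 0.00999, adjusted p = 0.523).

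The other 3 mediators lower at an unadjusted p under 0.05 were Pdgfb, a growth factor for stellate cells, Tnf, an inflammatory cytokine, and Mmp9, a gelatinase, with log2 fold changes of -1.22, -1.28 and -1.17. That makes 5 of the 14 mediators, against 2.06% of all genes tested. Their levels were low in both groups. Pdgfb was at 3.50 ± 1.74 CPM with rhCYGB and 8.18 ± 1.90 CPM with vehicle.

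The lysosome and lipid genes of macrophages had a direction that depended on scaling and on 1 library. Of 25 tested, 16 were lower and 9 higher. On log2(TPM + 1), where 12.8% of all genes tested were higher, 23 were lower. Without vehicle replicate 3, 11 were lower and the median was 0.01. Their median log2 fold change was -0.24, and 1 gene was higher at an unadjusted p under 0.05, as were 6.06% of all genes tested. That gene, Creg1, which makes a lysosomal glycoprotein, was at 753 ± 138 CPM with rhCYGB and 441 ± 71.3 CPM with vehicle, a log2 fold change of 0.77 (SE 0.32, edgeR adjusted p = 0.523). Apoe, the lipid carrier that hepatocytes also make in quantity, was at 42851 ± 29974 CPM with rhCYGB and 15667 ± 6006 CPM with vehicle, and its groups overlapped.

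**Figure D5:**
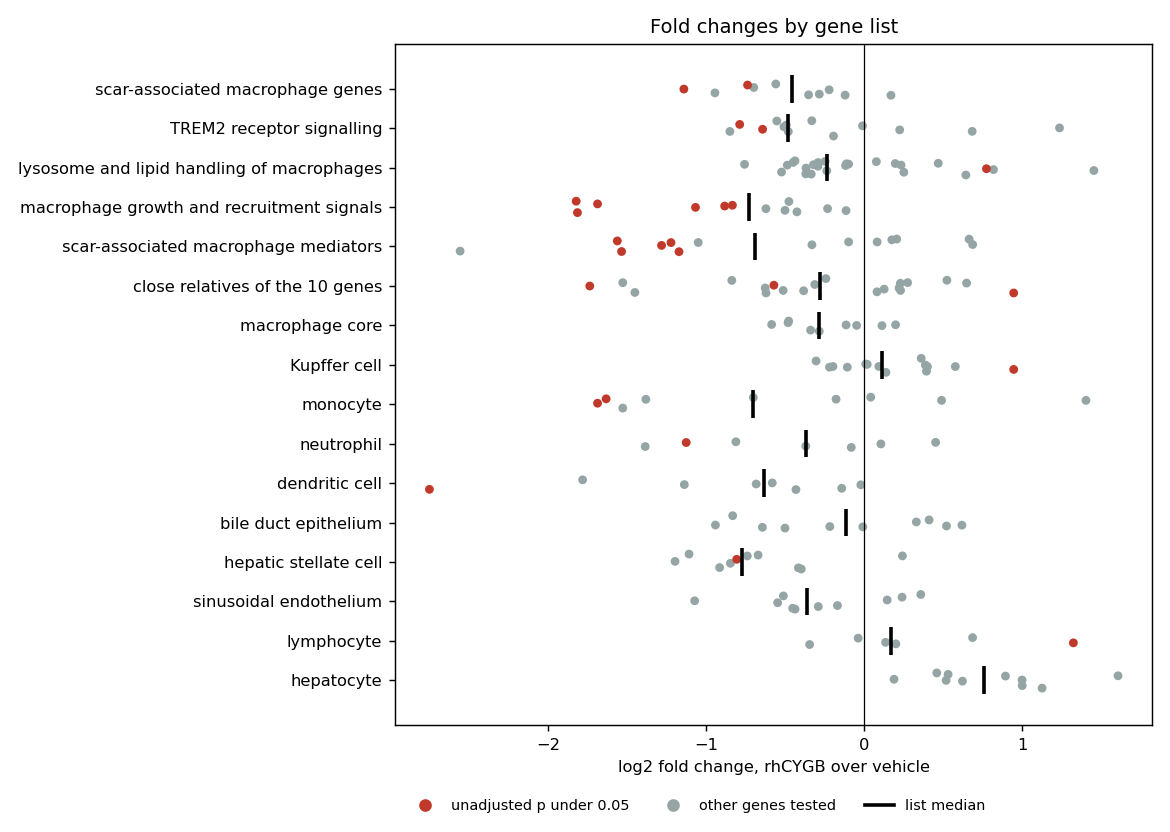
Log2 fold changes of rhCYGB over vehicle (x axis) for every gene tested in each list, with red points for genes with an unadjusted edgeR p under 0.05 and a black bar for the list's median. The lists of growth and recruitment signals and of mediators have medians of -0.73 and -0.69, beside -0.46 for the 10 scar-associated macrophage genes.

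Markers of other cells moved with the same livers, and their part in the values above was not tested. Monocyte markers were lower in 6 of 9 genes tested, with a median log2 fold change of -0.70, and besides Ccr2 the factor XIII chain F13a1 was at 2.1 ± 1.1 CPM with rhCYGB and 6.54 ± 1.02 CPM with vehicle. The summed monocyte markers overlapped, at 44.1 to 142 CPM with rhCYGB and 71.7 to 77.2 CPM with vehicle. Dendritic cell markers, which matter for Itgax because CD11c is also theirs, were lower in 8 of 8 genes tested, with a median of -0.63. The list holds 10 genes, and without the filter on low counts 10 of 10 were lower. With the length trend removed 7 of 8 were lower, and without vehicle replicate 1 it was 6 of 8. Their summed level did not overlap, at 8.53 to 10.9 CPM with rhCYGB and 13.7 to 15.8 CPM with vehicle. Xcr1, the XCL1 receptor found on cross-presenting dendritic cells, was near 0 with rhCYGB at 0.0899 ± 0.0328 CPM, against 0.601 ± 0.0761 CPM with vehicle. It had enough counts to be tested only through the vehicle livers, so its direction followed from the filter and carries no weight. The more abundant Cd83 was at 4.70 ± 0.554 CPM with rhCYGB and 7.05 ± 2.1 CPM with vehicle.

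Kupffer cells are the resident macrophages of the liver, and their markers did not follow the 10 genes on the CPM scale. Of 14 tested, 4 were lower and 10 higher, with a median of 0.11, although with the length trend removed 8 were lower. On log2(TPM + 1), where 12.8% of all genes tested were higher, 13 were lower. Without rhCYGB replicate 3, 1 was lower. Marco, a scavenger receptor related to Msr1, was at 147, 244 and 214 CPM in rhCYGB replicates 1 to 3, against 109, 99.4 and 106 CPM in vehicle replicates 1 to 3. The rhCYGB livers were all above the vehicle livers, and the log2 fold change was 0.94 with an SE of 0.28 (edgeR unadjusted p = 0.0116, adjusted p = 0.523). C1qb, a complement chain, was at 331 ± 144 CPM with rhCYGB and 258 ± 82.8 CPM with vehicle. The summed Kupffer cell markers were 1702 to 2346 CPM with rhCYGB and 1447 to 2019 CPM with vehicle.

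The remaining cell types differed in their direction. Hepatic stellate cell markers, with 9 of 10 lower and a median of -0.77, summed to 226 to 723 CPM with rhCYGB and 929.8 to 1128 CPM with vehicle, without overlap. Pdgfrb, the receptor of the Pdgfb product, was at 16.3 ± 5.57 CPM with rhCYGB and 28.5 ± 2.14 CPM with vehicle, and Dcn, the proteoglycan decorin, at 139 ± 77.0 CPM with rhCYGB and 249 ± 68.6 CPM with vehicle. Neutrophil markers, which matter for Lyz2 because granulocytes make it too, were lower in 5 of 7 genes tested, with a median of -0.37, and in 3 without vehicle replicate 2. They summed to 41.2 to 58.6 CPM with rhCYGB and 47.1 to 76.3 CPM with vehicle, and 1 marker was at 0 in every liver. Csf3r, the G-CSF receptor, was at 5.85 ± 2.52 CPM with rhCYGB and 12.8 ± 2.07 CPM with vehicle, and S100a8 at 19.2 ± 6.69 CPM with rhCYGB and 17.8 ± 5.03 CPM with vehicle.

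Bile duct markers, which bear on Cd9 and Lgals3, were lower in 6 of 10 genes with a median of -0.11. On log2(TPM + 1), where 12.8% of all genes tested were higher, 10 of 10 were lower. The bile duct markers summed to 213 to 356 CPM with rhCYGB and 256 to 287 CPM with vehicle. Cd24a and Spint2 had log2 fold changes of -0.50 and 0.33. Sinusoidal endothelium markers were lower in 7 of 10 genes with a median of -0.36, and summed to 165 to 243 CPM with rhCYGB and 201 to 259 CPM with vehicle. Clec4g and Fcgr2b had log2 fold changes of 0.24 and -0.55. Lymphocyte markers were few, with 6 tested, 2 lower and 4 higher, and summed to 3.71 to 5.92 CPM with rhCYGB and 2.39 to 4.33 CPM with vehicle. Klrb1c and Nkg7 had log2 fold changes of 1.32 and 0.20. Hepatocyte markers were higher in 10 of 10 genes with a median of 0.76, and summed to 133007 to 271695 CPM with rhCYGB and 93981 to 163225 CPM with vehicle. Alb and Trf had log2 fold changes of 0.89 and 0.19. On log2(TPM + 1), where 12.8% of all genes tested were higher, 5 of the hepatocyte markers were lower.

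At the level of transcripts, the 10 genes had 18 annotated forms, of which 17 had enough counts to be tested, and 0 passed an adjusted p of 0.05 (edgeR over 19664 transcripts, 0% of which passed). DESeq2 called 1 of them, that of Itgax, lower, against 0.707% of all transcripts. At an unadjusted edgeR p under 0.05, 2 were lower, against 1.19% of all transcripts. Itgax, Gpnmb, Cd9 and Lyz2 have 1 form each. Trem2 was carried mainly by its 1091-base form, which made up 78.9% to 86.5% of the gene's TPM with rhCYGB and 81.5% to 82.5% with vehicle. The 3643-base form of Msr1 carried 81.3% to 85.2% with rhCYGB and 82.6% to 88.4% with vehicle, and had an unadjusted edgeR p of 0.0314, while its 1467-base form was the minor one.

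For Fabp5 a minor 950-base form made up 2.74%, 7.65% and 6.77% of the gene's TPM in rhCYGB replicates 1 to 3, against 3.04%, 2.08% and 2.07% in vehicle replicates 1 to 3. It was high in rhCYGB replicates 2 and 3, with rhCYGB replicate 1 inside the vehicle range. For Ms4a7 the 1279-base form made up 8.94%, 22.5% and 10.3% with rhCYGB, against 7.78%, 32.4% and 40.6% with vehicle. These shares are the assembler's division of reads among forms that overlap almost wholly, and were picked after their values were seen.

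The genes whose pattern over the 6 livers was most like the mean of the 10 were sought among 11376 genes with at least 1 TPM on average, by Pearson's r of log2(TPM + 1). The 10 closest were Snrnp35, St6galnac4, Pianp, Zdhhc4, Slamf8, Gpsm3, Pld3, Cmtm7, Pqbp1 and Mmp12, with r from 0.992 for Snrnp35 to 0.985 for Mmp12. Closest to Trem2 alone were Cd37, Bcl2a1b, Capg, Lmna and Fcer1g, with r from 0.987 for Cd37 to 0.966 for Fcer1g, and closest to Gpnmb alone were Sept1, Zdhhc4, Cdkn2d, Ifi30 and Slc27a1, with r from 0.989 for Sept1 to 0.979 for Slc27a1. These are descriptions over 6 points that share the TPM scaling of each library. On the CPM scale Snrnp35 and Zdhhc4 had log2 fold changes of 0.47 and 0.55, opposite in sign to most of the 10 genes, while Mmp12 and Slamf8, a surface receptor of macrophages, had -1.56 and -1.14.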

How the data were processed

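The members and gene lists were chosen with earlier results of these data known. Liver mRNA of 6 mice, 3 per group, was sequenced; replicates are different animals, numbered in order of deposition. Per the submitters' processing notes, FastQC 0.11.7, HISAT2 2.1.0 and StringTie 1.3.4d were used with mm10. The authors deposited gene and transcript tables that give, per library, an estimated count and an FPKM value made with these tools. For transcripts with a count of at least 1000, the deposited estimated count was within 1% of FPKM times length times 1 constant per library. Lower counts and the gene table were not checked in this way. The estimated counts thus depend on how the assembler shared reads between isoforms and between similar genes. Neither annotation release nor strand setting is given in the sources used here. Gene coordinates come from the deposited transcript table.

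Counts, already whole, were tested in R 4.3.3 with edgeR 4.0.16 (filterByExpr, TMM, robust quasi-likelihood F test, Benjamini-Hochberg over all genes kept, threshold 0.05). SE is the fold change (log2) divided by the root of F. FPKM was rescaled to TPM. Alternatives were DESeq2 1.42.0, limma 3.58.1 (voom with and without sample quality weights, log2 TPM with pseudocounts of 1 and 0.1), other scalings and filters, removal of each library's length trend, a looser threshold of 0.1, and fits without each library. The settings for the other lists, and the counts of overlapping groups on other scales, were chosen after seeing the data. The text names all 10 members, list genes with an unadjusted p under 0.05 filled up to 2 by TPM, and the closest patterns. Promoter sequences are from RefSeq on GRCm38.p6. A gene of the macrophage core list is not reported here and was left out of every value of that list.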

Additional observations from a re-analysis of the deposited data

How the results depend on the processing

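Of 14415 genes, edgeR called 0 (1170 at an unadjusted p under 0.05), DESeq2 56 of the 1836 to which it gave an adjusted p, and limma-voom with sample quality weights 4323. Leaving out each library gave 0 to 3391, the 3391 without rhCYGB replicate 1, where 10.5% of genes were called lower. Of the 10 members, limma-voom with quality weights called 3 lower, against 13.9% of all genes, with limma adjusted p-values of 0.0226 for Cd9, 0.0230 for Itgax and 0.0175 for Msr1. Leaving out each library called 0 to 1, the 1 being Msr1 without rhCYGB replicate 1 (edgeR adjusted p = 0.0317). DESeq2 gave no adjusted p for Trem2, Itgax, Ms4a7 and Msr1 at the gene level, and called 1 member transcript, that of Itgax (DESeq2 adjusted p = 0.0365), against 0.707% of transcripts called lower. Leaving out each library called 0 member transcripts. The members' median was -1.22 on log2(TPM + 1) and on log2(TPM + 0.1), where all genes had medians of -0.51 and -0.75, and -0.66 to -0.31 with each library left out. Trem2 turned to -0.66 on log2(TPM + 1), -0.67 on log2(TPM + 0.1) and -0.37 with the length trend removed, and ran from -0.32 to 0.58 with each library left out. Lgals3 was 0.00846 by limma-voom with quality weights and ran from -0.61 to 0.45, and Cd68 from -0.52 to 0.11, with each library left out. The causes were not tested. The other 7 members were lower under all 17 alternatives, Itgax at -1.88 to -0.85 and Msr1 at -1.45 to -0.58. Of these alternatives, the looser threshold of 0.1 leaves every fold change as it was and could not alter a direction. No paired analysis was possible because the replicate numbers only give the order of deposition and pair no animals.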

Other observations

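Close relatives of the 10 genes, made of paralogues and members of the same families, did not move one way on the CPM scale. Of 20 tested, 11 had lower and 9 higher fitted levels with rhCYGB. The median of their log2 fold changes was -0.28. On log2(TPM + 1), where 12.8% of all genes tested were higher, 19 were lower. With the length trend removed, 15 of the 20 were lower. Besides Marco, 2 had an unadjusted edgeR p under 0.05, and both were lower, against 2.06% of all genes tested. Marco was higher, as were 6.06% of all genes tested at that p. In CPM, 4 of the 20 had rhCYGB livers wholly below the vehicle livers, against 7.38% of all genes tested. Itgam, which makes CD11b, the integrin chain closest to CD11c, was at 8.08, 2.71 and 0.823 CPM in rhCYGB replicates 1 to 3, against 15.8, 9.97 and 13.1 CPM in vehicle replicates 1 to 3. Every rhCYGB liver was below every vehicle liver, with a log2 fold change of -1.74 (SE 0.73, edgeR adjusted p = 0.523). Ms4a6d, of the family of Ms4a7, was at 11.7, 15.4 and 11.2 CPM with rhCYGB, against 18.6, 18.3 and 19.99 CPM with vehicle, also without overlap, with a log2 fold change of -0.57 (SE 0.24, edgeR adjusted p = 0.523).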
